A study of Mus musculus with 15 samples.

Results

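Rearrangements of the T cell receptor beta (Trb) locus that keep the reading frame but carry a stop codon were examined in CD8+ PD-1+ CD44+ T cells of tumor-bearing mice. Every row that the sequencing provider had given the status Stop was taken, which gave 363 rows of 29992 in 15 samples. The other rows were 18625 in-frame (status In) and 11004 out-of-frame (status Out) rearrangements, and stop and out-of-frame rows together are called non-productive here. The 363 rows held 349 distinct sequences. The tumor-draining lymph node (TdLN) held 299 of the rows, tumor 1 held 37 and tumor 2 held 27.

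The samples came from 5 C57BL/6 mice that carried B16F10GP tumors on both flanks, a line of B16F10 melanoma cells that expresses the glycoprotein of lymphocytic choriomeningitis virus. All 15 samples were untreated controls, so no group received radiation or antibody, and the female mice had been purchased at 6 weeks of age. Tumor 1, on the right flank (T-R), was implanted on day 0 and tumor 2, on the left flank (T-L), on day 3. The tissues, with the lymph node (LN) that drains tumor 1, were harvested on day 19. T cells were flow sorted, and their genomic DNA was sequenced by the immunoSEQ assay, which reports each unique rearrangement as a row of 87 bases with a count of templates, the input DNA molecules estimated for it. A file held 2083 to 9149 rearrangements and 4909 to 13848 templates in the TdLN, 362 to 684 rearrangements and 5382 to 7946 templates in tumor 1, and 103 to 974 rearrangements and 338 to 5401 templates in tumor 2. The rows hold no expression values, so the sorted phenotype could not be set against marker genes.

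V(D)J recombination joins a V, a D and a J gene segment after bases have been trimmed from their ends and non-templated N bases have been added between them. The joint encodes the complementarity determining region 3 (CDR3), the part of the receptor chain that lies over the antigen peptide. A joint that shifts the frame or creates a stop codon yields no beta chain, and a T cell can still carry it in its DNA on the allele that it does not use. Genomic DNA therefore holds such joints, whereas the cell that carries them is selected for the receptor made from its other allele.

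The germline ends of Trbv4 and Trbv24 are shown first because a stop codon, in capitals, lies within the last bases of each of these V genes. The sequences are from the plus strand of the mm10 assembly, chr6:41059827-41059886 for Trbv4 and chr6:41218498-41218557 for Trbv24, in the last exon of each gene in the GENCODE annotation, which lists Trbv4 as a V gene and Trbv24 as a V pseudogene.
Trbv4 germline end: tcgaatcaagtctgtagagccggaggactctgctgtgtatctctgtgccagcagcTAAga
Trbv24 germline end: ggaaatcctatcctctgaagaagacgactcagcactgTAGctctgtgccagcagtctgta
In Trbv4 the TAA is codon 5 of the CDR3 and ends 2 bases before the end of the gene. In Trbv24 the TAG ends 3 bases before the CDR3 begins, and the gene ends in an incomplete codon, ta, which a following A or G completes to a stop codon.

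The largest stop codon rearrangement of each mouse, by templates summed over its 3 samples, is shown as sequenced, with its in-frame stop codon in capitals. They show a stop codon from the V gene in mice 1 and 2 and one made at the junction in mice 3, 4 and 5.
mouse 1, Trbv4 and Trbj2-7: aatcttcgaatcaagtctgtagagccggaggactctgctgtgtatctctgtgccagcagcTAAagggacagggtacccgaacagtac
mouse 2, Trbv4 and Trbj1-5: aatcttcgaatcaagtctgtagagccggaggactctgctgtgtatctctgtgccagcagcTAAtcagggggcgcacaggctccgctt
mouse 3, Trbv13-3 and Trbj2-7: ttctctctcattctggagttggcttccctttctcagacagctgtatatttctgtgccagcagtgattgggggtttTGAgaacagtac
mouse 4, Trbv20 and Trbj2-2: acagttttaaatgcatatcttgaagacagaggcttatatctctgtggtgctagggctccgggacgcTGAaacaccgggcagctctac
mouse 5, Trbv31 and Trbj2-7: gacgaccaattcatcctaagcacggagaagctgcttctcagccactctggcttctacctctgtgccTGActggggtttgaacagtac
In mouse 1 the rearrangement had 7 templates in the TdLN and none in the tumors. In mouse 2 it had 8 TdLN templates, 14 in tumor 1 and 11 in tumor 2. In mouse 3 it had 42 templates in the TdLN and 506 in tumor 1, and it was not detected in tumor 2. In mouse 4 it had 4 templates in tumor 1 and 1 in tumor 2, and in mouse 5 it had 3 templates in the TdLN and 4 in tumor 2. The rearrangement of mouse 3 stood far above the others in size.

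The share of unique rearrangements with a stop codon had overlapping ranges in the 3 tissues. The share in the TdLN was 0.912%, 1.62%, 1.28%, 1.23% and 1.15% in mice 1 to 5 (1.24% ± 0.255, SD, n = 5). In tumor 1 it was 0.901%, 1.32%, 2.76%, 0.877% and 1.51% (1.47% ± 0.770, SD, n = 5), and in tumor 2 it was 0.684%, 1.33%, 1.28%, 0.971% and 0.821% (1.02% ± 0.282, SD, n = 5). The highest share, in tumor 1 of mouse 3, rested on 10 rows and had a 95% Wilson interval of 1.51% to 5.01%, and the share in tumor 2 of mouse 4 rested on 1 row with an interval of 0.172% to 5.30%. By two-sided exact permutation tests over samples, with Benjamini-Hochberg adjustment over the 3 comparisons, no pair of tissues passed (adjusted p = 0.675 for tumor 1 against the TdLN, 0.369 for tumor 2 against the TdLN and 0.369 between the tumors). Intervals cover counting error only.

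**Figure D1:**
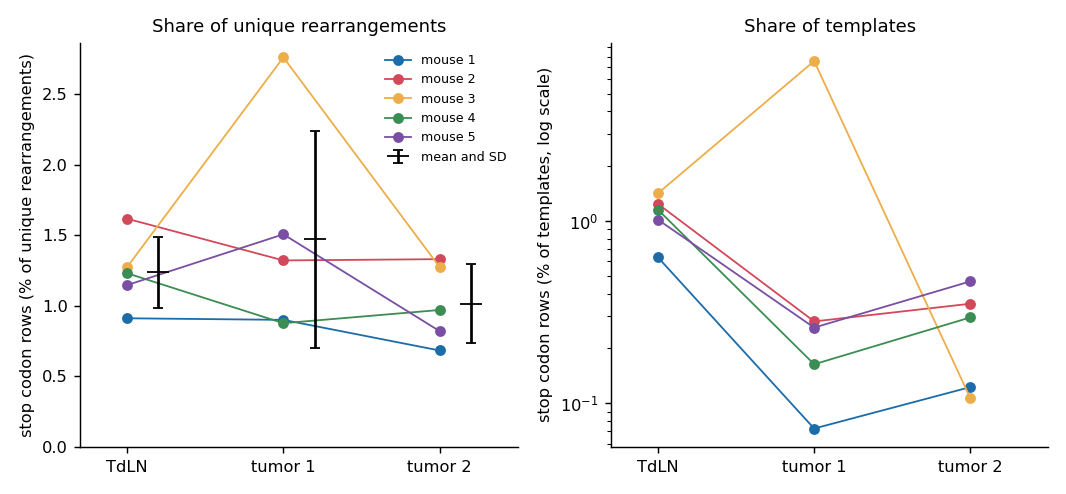
Share of unique rearrangements (left, percent) and of templates (right, percent, log scale) with a stop codon in the TdLN, tumor 1 and tumor 2, with a line for each of the 5 mice and, on the left, the mean and SD. The unique shares of the tissues overlap, while 4 of 5 tumor 1 samples and all 5 tumor 2 samples lie below every TdLN in template share and tumor 1 of mouse 3 stands at 7.56%.

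The share of templates fell in tumor 2. It was 0.632%, 1.24%, 1.42%, 1.16% and 1.02% in the TdLN of mice 1 to 5 and 0.123%, 0.352%, 0.106%, 0.296% and 0.467% in tumor 2. Every tumor 2 sample lay below every TdLN sample. The difference was -0.83 percentage points (two-sided exact permutation test, p = 0.00794, the smallest that 5 against 5 samples allow, adjusted p = 0.0238). With the mouse as a block the sign-flip permutation p was 0.0625, the smallest that 5 mice allow (adjusted p = 0.188). The call was also lost without rearrangements found in another mouse (-0.36 percentage points, exact permutation test, adjusted p = 0.190) and without rows whose first in-frame stop codon lay wholly in V bases (-0.38, exact permutation test, adjusted p = 0.0952). In tumor 1 the shares were 0.0726%, 0.281%, 0.164% and 0.260% in mice 1, 2, 4 and 5, again below every TdLN, and 7.56% in mouse 3 (95% Wilson interval 6.96% to 8.21%). Over 5 mice, tumor 1 against the TdLN did not pass (exact permutation test, adjusted p = 1). Without mouse 3 the difference was -0.82 percentage points (exact permutation test, adjusted p = 0.0429), so that 1 library turned its direction.

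Tumor 1 of mouse 3 owed its share to a single rearrangement. The Trbv13-3 and Trbj2-7 rearrangement shown above held 506 of the 518 stop codon templates of that sample and 7.39% of all its templates, and only 2 rows of any status were larger. Without it the stop codon share of that sample was 0.175%. In the TdLN of the same mouse it held 42 templates, 0.702% of the sample, and 12 rows were larger. Its V part matched Trbv13-3 exactly over 66 bases, with 1 base deleted from the gene, and 6 N bases were added next to the J segment.

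As a share of unique non-productive rearrangements, stop codon rows were 3.39% ± 0.750 (SD, n = 5) in the TdLN, 3.10% ± 1.52 (SD, n = 5) in tumor 1 and 2.15% ± 0.528 (SD, n = 5) in tumor 2. In tumor 2 the value was lower than in the TdLN in each of the 5 mice. By the exact permutation test the difference of -1.24 percentage points gave p = 0.0159 and adjusted p = 0.0476. It gave p = 0.0625 with the mouse as a block (exact sign-flip permutation test). Leaving out the 167 rows whose first in-frame stop codon, upstream of the CDR3 or in it, lay wholly in V bases brought the difference to 0.03 percentage points (exact permutation test, adjusted p = 0.921).

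Most stop codon rearrangements were small. Of the 363 rows, 266 (73.3%) had 1 template, 85 had 2 or 3, 8 had 4 to 10 and 4 had more than 10, against 75.6% with 1 template among out-of-frame and 62.2% among in-frame rows. The single-template share was 73.0% ± 5.40 (SD, n = 5) in the TdLN, 64.0% ± 17.5 (SD, n = 5) in tumor 1 and 85.3% ± 16.4 (SD, n = 5) in tumor 2. Tumor 1 of mouse 4 was lowest at 33.3%, with 2 of 6 rows. No pair of tissues passed the exact permutation test (adjusted p = 0.341, 0.262 and 0.262 for tumor 1 against the TdLN, tumor 2 against the TdLN and tumor 1 against tumor 2).

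Rows of the other statuses had more templates per rearrangement in tumor 1 than in the TdLN, and in tumor 2 the out-of-frame ranges overlapped. Out-of-frame rows averaged 1.32 to 2.23 templates in the TdLN samples, 3.81 to 14.0 in tumor 1 and 1.70 to 6.62 in tumor 2, and in-frame rows averaged 1.53 to 3.05, 10.7 to 25.0 and 3.74 to 19.9. Stop codon rows averaged 1.34 to 3.04 templates in the TdLN, 1.0 to 2.11 in tumor 2 and 1.25 to 2.75 in tumor 1 of mice 1, 2, 4 and 5, but 51.8 in tumor 1 of mouse 3. Within the non-productive templates, stop codon rows held 2.29% to 4.16% in the TdLN samples, 0.492% to 18% in those of tumor 1, where mouse 3 was highest, and 0.593% to 1.81% in those of tumor 2. These values describe the samples and were not tested.

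All 363 rows held an in-frame stop codon in the CDR3, and 39 of them held another upstream of it. The first stop codon of the CDR3 was TAA in 170 rows, TGA in 104 and TAG in 89. Codon 5 of the CDR3 held it in 187 rows and codon 6 in 59. In 133 rows (36.6%) all bases of the codon came from the V gene, and in another 67 (18.5%) the codon started in the V part and ended beyond it. In 75 rows it lay wholly in bases listed as N, in 63 it spanned N and D bases, and in 25 it spanned N and J bases. Of these, 9 of the 75 and 1 of the 63 were Trbj1-7 rows in which the bases listed as N matched the germline before Trbj1-7. No stop codon lay wholly in D or in J.

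**Figure D2:**
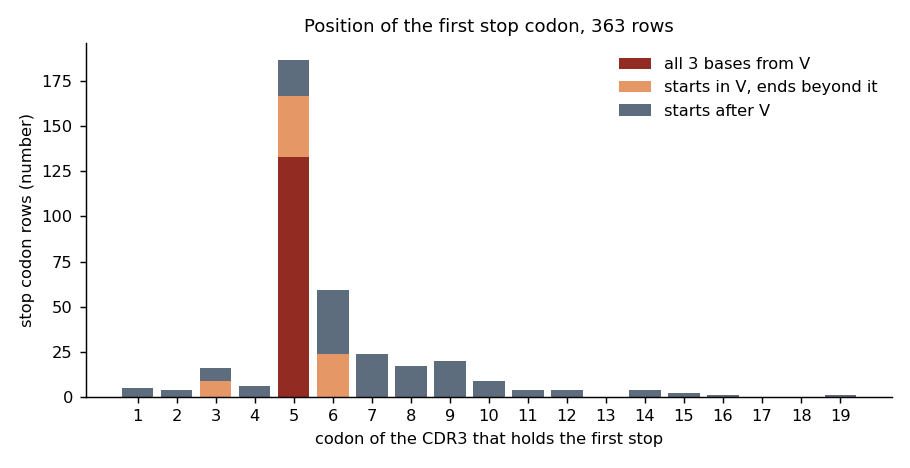
Number of stop codon rows (vertical axis) by the codon of the CDR3 that holds its first stop codon (horizontal axis), over all 15 samples. The 133 codons wholly from the V gene sit at codon 5, and those that start after the V part spread from codon 1 to codon 19.

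The share of rows whose CDR3 stop codon started in the V part had overlapping ranges in the TdLN and the tumors. It was 73.7%, 58.5%, 42.9%, 51.9% and 68.6% in the TdLN of mice 1 to 5. In tumor 1 the shares were 25.0%, 37.5%, 20%, 50% and 44.4%, and in tumor 2 they were 50%, 33.3%, 20%, 0% and 50%. The tumor shares rested on 4 to 10 rows per sample in tumor 1 and 1 to 9 in tumor 2, and the difference was not tested. Stop codons that started after the V part were 0.240% to 0.729% of unique rearrangements in the TdLN, 0.439% to 2.21% in tumor 1 and 0.342% to 1.02% in tumor 2.

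Trbv4 led the V genes. It was named in 150 of the 363 rows (41.3%), against 4.56% of in-frame and 6.83% of out-of-frame rows. In the TdLN its share of stop codon rows was 52.6%, 48.8%, 28.6%, 45.3% and 45.7% in mice 1 to 5 (44.2% ± 9.22, SD, n = 5), where it was 6.81% ± 1.14 of out-of-frame and 4.64% ± 0.425 of in-frame rows (SD, n = 5). The lowest stop codon value was above the highest of both other statuses. Among Trbv4 rows that kept the frame, 15% had a stop codon, against 1.18% for all other V genes together. In the tumors Trbv4 had 1, 2, 2, 1 and 4 stop codon rows in tumor 1 of mice 1 to 5 and 1, 2, 1, 0 and 2 in tumor 2.

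In most Trbv4 rows the stop codon was the germline codon shown above. Of the 150 rows, 133 had lost 0, 1 or 2 bases of the gene, which leaves the TAA whole. In 132 of them the stop codon was that TAA, and the other had a TGA at the same codon. A row that keeps the frame and the whole TAA is given the status Stop, so few in-frame rows with such deletions can remain. They were 10 of 850 in-frame Trbv4 rows (1.18%), while 248 of 752 out-of-frame rows (33.0%) had lost 0 to 2 bases. In-frame Trbv4 rows had 4 or 5 bases deleted in 622 of 850 cases (73.2%). Out-of-frame Trbv4 rows also peaked there, with 344 of 752 (45.7%). A further 14 Trbv4 stop codons started in the V part and ended beyond it. Of the 21 V genes with at least 100 rows, all with a germline end that could be read, Trbv4 was the only 1 with a whole stop codon in its CDR3 part.

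**Figure D3:**
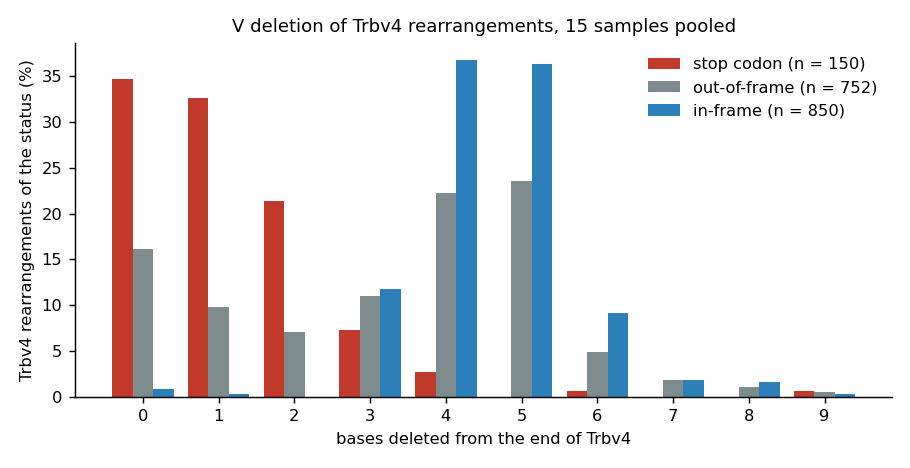
Percent of Trbv4 rearrangements of each status (vertical axis) by the number of bases deleted from the end of the gene (horizontal axis), over all 15 samples. Stop codon rows pile up at 0 to 2 deleted bases, which leave the TAA whole. In-frame rows are at 1.18% there, since a row that keeps the frame and the TAA is given the status Stop. In-frame and out-of-frame rows peak at 4 and 5.

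Trbv24 came next, with 33 rows (9.09%), 32 of them in the TdLN. Its share of TdLN stop codon rows was 10.2% ± 5.48 (SD, n = 5) against 4.26% ± 0.573 of out-of-frame and 1.11% ± 0.0660 of in-frame rows. All 33 rows also held an in-frame stop codon upstream of the CDR3. The first CDR3 stop was at codon 6, the codon the incomplete ta of the germline begins, in 19 of 33 rows. A Trbv24 rearrangement of 3 templates from the TdLN of mouse 3, chosen after its values were seen, shows both stop codons.
TdLN of mouse 3, Trbv24 and Trbj1-5: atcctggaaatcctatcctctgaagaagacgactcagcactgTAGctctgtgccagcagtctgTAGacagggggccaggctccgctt

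Across V genes in the TdLN, the number of unique rearrangements per gene was compared between stop codon and other rows with edgeR's quasi-likelihood test, with the file as a block. Against out-of-frame rows, 6 of 26 V genes passed an adjusted p under 0.05 (23.1%), 2 higher and 4 lower. Trbv4 was higher by 2.65 on the log2 scale (SE 0.21, edgeR adjusted p = 6.51e-21) and Trbv24 by 1.20 (SE 0.46, edgeR adjusted p = 0.0482). The lower genes were Trbv12-1 (log2 fold change -2.66), Trbv12-2 (-2.86), Trbv13-2 (-1.76) and Trbv19 (-1.28). They had only 3, 2, 7 and 11 stop codon rows in the TdLN, so their fold changes rest on few rows. Against in-frame rows, 5 of 24 passed (20.8%), with Trbv4 at 3.26 (SE 0.23, edgeR adjusted p = 3.96e-24) and Trbv24 at 3.16 (SE 0.65, edgeR adjusted p = 6.08e-05) higher, and Trbv12-1 (-3.06), Trbv12-2 (-3.46) and Trbv13-2 (-2.08) lower. The germline TAA gives the status Stop to Trbv4 rows that keep it in frame, so the direction of both Trbv4 tests followed from the status. The Trbv4 passes are therefore no support for a difference in V gene use. Shares sum to 100%, and without Trbv4 none of the 4 lower genes passed against out-of-frame rows and only Trbv24 did. Without Trbv4, Trbv12-1, Trbv12-2 and Trbv24 still passed against in-frame rows. Against out-of-frame rows 3 V genes passed without mouse 3 and 1, Trbv4, without mouse 5. The call of Trbv24 against out-of-frame rows was lost with TMM factors (edgeR adjusted p = 0.292), with at least 2 templates per rearrangement, with no filter on low counts and without mouse 1, 3 or 5, whereas Trbv4 passed in each of these.

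**Figure D4:**
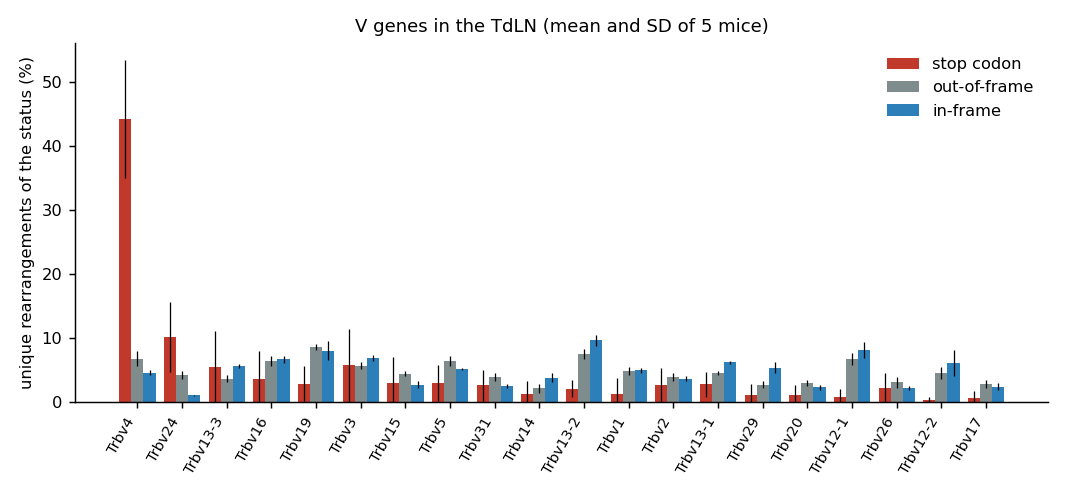
Share of each V gene among the unique rearrangements of a status in the TdLN (vertical axis, percent, mean and SD of 5 mice) for the 20 V genes with the most stop codon rows. Trbv4 makes up 44.2% of stop codon rows against 6.81% of out-of-frame and 4.64% of in-frame rows.

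Trbj1-7 stood apart among the J genes by name, though in most of its stop codon rows the joint lay before it, as described below. It was named in 12 stop codon rows (3.31%), 19 out-of-frame rows (0.173%) and 3 in-frame rows (0.0161%), and 80.0% of its rows that kept the frame held a stop codon. In the TdLN it had 0, 2, 0, 3 and 4 stop codon rows in mice 1 to 5, against 0, 1, 0, 4 and 5 out-of-frame and 0, 1, 0, 1 and 0 in-frame rows. Against out-of-frame rows 3 of 13 J genes passed (23.1%), namely Trbj1-7, Trbj2-4, higher by 0.84, and Trbj2-7, lower (log2 fold change -0.52). Mice 1 and 3 had no Trbj1-7 row of either status, so the blocked fit gave no stable fold change or p for it. The fit without the block gave 4.53 on the log2 scale (edgeR adjusted p = 6.07e-05). Against in-frame rows 2 of 13 passed (15.4%), Trbj1-7 at 7.14 (SE 1.32, edgeR adjusted p = 2.05e-05) and Trbj2-1 lower at -0.86 (SE 0.26, edgeR adjusted p = 0.0161). Trbj1-7 reached the filter of 10 rows there only through its 9 stop codon rows, beside 2 in-frame rows. The stop codon of those 9 rows lies in the germline stretch described below. Neither pass of Trbj1-7, against out-of-frame or in-frame rows, is thus support for a difference in J gene use. Only Trbj1-7 passed against out-of-frame rows without mouse 2 or mouse 5, and against in-frame rows no J gene passed without mouse 2, 4 or 5, when Trbj1-7 had fewer than 10 rows and was not tested.

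In 10 of the 12 Trbj1-7 rows, the last 43 to 58 bases matched the germline without a break from 36 to 51 bases before the annotated start of Trbj1-7, at chr6:41535642-41535687, and the stop codon lay inside that stretch. Each of these stretches begins within the annotated Trbj1-6, at chr6:41535554-41535606. The stretch of the row from tumor 2 of mouse 5 begins at 41535591. The others begin between 41535603 and 41535606, in the last bases of Trbj1-6, an overlap too short to place the joint within that gene. In these rows the germline thus runs unbroken into Trbj1-7 from the end of Trbj1-6 or the bases just after it, and the name Trbj1-7 does not mark the joint. The other 2 rows, both Trbv27, did not match in this way. Of the 10, 4 were Trbv24 rows of 1 template from the TdLN of mouse 5. An example from the TdLN of mouse 2 had 2 templates and was chosen after its values were seen. Its last 44 bases match chr6:41535605-41535648.
TdLN of mouse 2, Trbv15 and Trbj1-7: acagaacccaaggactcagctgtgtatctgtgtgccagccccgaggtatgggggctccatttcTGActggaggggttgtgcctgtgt

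Between tissues, V and J genes of stop codon rows were compared for tumor 1 against the TdLN. The edgeR fit held all 15 samples and did not take the mouse as a block. No V gene of 10 passed (0%, with 0 at an unadjusted p under 0.05, edgeR), and Trbv4 had a log2 difference of -0.72 (SE 0.26, edgeR adjusted p = 0.446). No J gene of 13 passed (0%), with 3 at an unadjusted p under 0.05, while TMM factors gave 5 and DESeq2 gave 2. Stop codon rows of tumor 1 were 4 to 10 per sample, which limits this comparison.

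The number of bases listed as N averaged higher in stop codon rows of the TdLN than in the other statuses in each mouse. The mean was 5.11, 7.02, 5.32, 5.79 and 5.40 bases in mice 1 to 5, against 4.72, 4.60, 4.42, 3.96 and 4.03 in out-of-frame and 3.95, 3.75, 3.70, 3.33 and 3.22 in in-frame rows. The difference from out-of-frame rows was 1.38 bases and from in-frame rows 2.14 bases, each higher in 5 of 5 mice (exact sign-flip permutation test, p = 0.0625 for both, the smallest that 5 mice allow, adjusted over 2 comparisons 0.0625). Trbj1-7 rows entered the means of mice 2, 4 and 5, and the 10 that matched the germline before Trbj1-7 list 34 to 55 N bases each. Without Trbj1-7 in any status, an alternative chosen after seeing the data, the stop codon means were 5.11, 5.41, 5.32, 4.72 and 4.27 bases, the differences were 0.65 and 1.37 bases, and each was still higher in 5 of 5 mice (exact sign-flip permutation test, p = 0.0625 for both). Trbv4 rows averaged 3.59 N bases over all samples and stop codon rows of other V genes 8.49, or 6.86 without Trbj1-7.

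In the tumors the mean number of N bases was spread widely. It was 10.25, 10.4, 7.90, 3.17 and 6.0 in tumor 1 of mice 1 to 5 and 4.75, 16.2, 14.6, 8.0 and 13.6 in tumor 2, where mouse 4 had 1 row. The difference from the TdLN was 1.81 bases for tumor 1 (exact permutation test, adjusted p = 0.230) and 5.71 bases for tumor 2 (exact permutation test, adjusted p = 0.167), and neither passed. Without Trbj1-7 the differences were 2.44 bases (exact permutation test, adjusted p = 0.179) and 5.12 bases (exact permutation test, adjusted p = 0.0952).

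Long V deletions went with the wide spread in the tumors. Rows with 10 or more V bases deleted were 11 of 299 (3.68%) in the TdLN, 9 of 37 (24.3%) in tumor 1 and 11 of 27 (40.7%) in tumor 2. Among out-of-frame rows the shares were 2.97%, 17.0% and 16.3%, and among in-frame rows 0.70%, 5.34% and 3.36%. The stop codon counts were 0, 3, 3, 3 and 2 in the TdLN of mice 1 to 5, 3, 4, 2, 0 and 0 in tumor 1, and 0, 5, 4, 0 and 2 in tumor 2. A loss of 18 or 19 bases was found for all 11 of these tumor 2 rows, 5 of the 9 from tumor 1 and 8 of the 11 TdLN rows. All 11 tumor 2 rows lacked the first cysteine of the CDR3, as did 9 stop codon rows from tumor 1 and 9 from the TdLN. Among out-of-frame rows with 10 or more deleted bases, 60 of 254 TdLN, 60 of 210 tumor 1 and 77 of 198 tumor 2 rows had lost 18 or 19. The limit of 10 deleted bases was chosen after the data were seen, and none of these counts was tested. Among rows with fewer than 10 deleted bases, stop codon rows of the TdLN averaged 5.41 N bases, those of tumor 1 averaged 4.93 and those of tumor 2 averaged 9.31. Without Trbj1-7 these means were 4.37, 4.93 and 6.27. An example from tumor 2 of mouse 5, with 2 templates, 18 deleted V bases and 17 N bases, shows the stop codon within the bases after the V part.
tumor 2 of mouse 5, Trbv15 and Trbj1-4: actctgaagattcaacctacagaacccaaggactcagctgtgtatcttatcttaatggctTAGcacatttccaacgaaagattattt

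**Figure D5:**
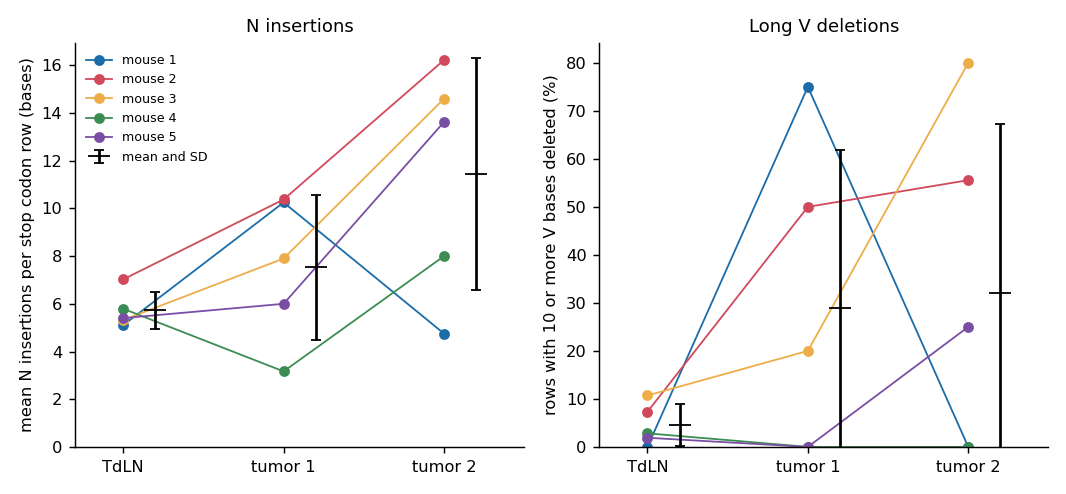
Mean N bases per stop codon row (left) and percent of stop codon rows with 10 or more V bases deleted (right) in the TdLN, tumor 1 and tumor 2, with a line for each of the 5 mice and the mean and SD. The TdLN samples stay between 5.11 and 7.02 bases and the tumors range from 3.17 to 16.2, with Trbj1-7 rows included.

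Few stop codon rows looked like altered copies of a larger row. A row was counted as a small copy where its last 40 bases were those of a row of the same file with at least 50 times its templates. This held for 4 of 37 rows (10.8%) in tumor 1. It held for 0 of 299 rows of the TdLN and 0 of 27 rows of tumor 2. A copy needs a row of at least 50 templates in its file. The TdLN of mice 4 and 5 and tumor 2 of mouse 4 had no such row. Their 106, 105 and 1 stop codon rows could not be counted as copies, nor could their other rows, so no upper limit is given. Out-of-frame rows gave 16 of 8559 (0.187%), 125 of 1232 (10.1%) and 79 of 1213 (6.51%), and in-frame rows 24 of 15712 (0.153%), 143 of 1423 (10.05%) and 122 of 1490 (8.19%). All 4 stop codon copies were in tumor 1 of mouse 3, 40% of its 10 rows. By exact sign-flip permutation tests, none of the comparisons of stop codon with out-of-frame or in-frame rows of the same tissue passed (p = 0.25 for the TdLN, 0.938 for tumor 1 and 0.125 for tumor 2, the same against both statuses, adjusted p at least 0.562 over 9 comparisons), and no pair of tissues did (exact permutation test, p = 1 for each).

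Of these 4 copies, 3 shared the last bases of the 506-template rearrangement of mouse 3 and 1 those of an out-of-frame Trbv20 and Trbj1-2 row with 1807 templates. Each had 1 template. The copies and the out-of-frame row are shown because they differ from the larger row in different ways.
copy 1 of the Trbv13-3 rearrangement: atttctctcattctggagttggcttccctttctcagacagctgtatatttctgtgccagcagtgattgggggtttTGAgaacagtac
copy 2 of the Trbv13-3 rearrangement: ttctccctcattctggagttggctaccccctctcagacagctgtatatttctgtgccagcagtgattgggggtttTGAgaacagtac
copy 3 of the Trbv13-3 rearrangement: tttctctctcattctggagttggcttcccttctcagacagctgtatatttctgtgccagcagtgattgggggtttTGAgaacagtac
copy 4, of the Trbv20 row: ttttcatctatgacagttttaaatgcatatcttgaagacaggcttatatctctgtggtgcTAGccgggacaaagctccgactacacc
out-of-frame Trbv20 row: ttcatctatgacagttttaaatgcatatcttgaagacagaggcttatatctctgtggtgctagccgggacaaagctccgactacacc
Copies 1 and 3, their first base left out, equalled the larger row with 1 base removed, and for copy 1 the row also differed at only 2 positions without a removal. Copy 4, its first 2 bases left out, equalled the out-of-frame row with 2 bases removed, which puts the TAG in capitals in frame. Copy 2 differed from the larger row at 4 positions, its first 39 bases matched Trbv13-2, and it was also found with 1 template in the TdLN of mouse 3. No stop codon row lay within 1 or 2 substitutions of an in-frame row with at least 50 times its templates.

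Of the 349 distinct sequences, 10 occurred in more than 1 sample, 8 of them within 1 mouse. In tumor 1 of mice 1 to 5, 0 of 4, 2 of 8, 3 of 10, 1 of 6 and 0 of 9 stop codon rearrangements were found in the TdLN of the same mouse, a mean of 14.3%, against 10.5% to 44.2% of the rearrangements of all statuses, and none were found in the TdLN of another mouse. Over all pairings of the mouse numbers, the one-sided exact permutation test gave p = 0.0167 (adjusted p = 0.0333 over 2 comparisons), and p = 0.0833 without mouse 2, 3 or 4. Of the 3 in mouse 3, 1 was copy 2 shown above. The pairing by number was itself checked by overlap of all statuses, stop codon rows among them, so this test is not separate from that check. In tumor 2 the stop codon rearrangements found in the TdLN of the same mouse were 0 of 4, 2 of 9, 0 of 5, 0 of 1 and 2 of 8, a mean of 9.44%, against 1.02% to 23.8% over all statuses (one-sided exact permutation test, p = 0.25, adjusted p = 0.25).

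The 2 sequences found in more than 1 mouse were both in the 3 samples of mouse 2 and in the sample labelled tumor 2 of mouse 1. They are the Trbv4 and Trbj1-5 rearrangement shown above and a Trbv31 and Trbj2-7 rearrangement with 1 template in each of the 4 samples. That sample had 4 stop codon rows, of which 2 were found in mouse 2 and 0 in the other samples of mouse 1. Over all statuses, 47.2% of its rows and 89.5% of its templates were found in mouse 2, against 32.6% of its rows in the other samples of mouse 1. Without mouse 1 the difference in template share between tumor 2 and the TdLN was -0.90 percentage points.

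The status Stop covered the CDR3 alone. Among in-frame rows, 275 had a stop codon in frame upstream of the CDR3, within the sequenced V bases, of which 205 were all the in-frame Trbv24 rows and 70 fell on 17 other V genes, led by Trbv12-1 with 18 and Trbv29 with 17. Of the stop codon rows, 39 held an upstream stop codon as well. With these in-frame rows counted, 638 rows had a stop codon.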

How the data were processed

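Genomic DNA of sorted CD8+ PD-1+ CD44+ T cells from 15 samples, 3 tissues of 5 mice, was sequenced by the immunoSEQ assay. The deposited files list each rearrangement with its count of templates, its status, gene names and the bases deleted and inserted, as the authors received them from the provider, and the aligner is not given in the sources used here. Template counts were used as deposited. Per the labels the build is mm10; 35 V and 14 J gene names were matched to GENCODE M21 symbols, 16 rows had no V gene, and sequences were read from the GRCm38 assembly. The members and lists were chosen with earlier results of these data known.

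Groups came from the labels. The labels give a number and no mouse, and same-numbered samples were taken to come from the same mouse. Overlap bore this out for tumor 1. There 10.5% to 44.2% of rearrangements of all statuses were in the TdLN with the same number, and at most 4.19% in any other. For tumor 2 the values were 1.02% to 23.8% and at most 16.4%, so overlap does not settle its pairing. Its sample numbered 1 had 47.2% of its rows in mouse 2 and 32.6% in the other samples of mouse 1. Its samples numbered 3 and 5 had 1.02% and 5.13% in their own TdLN against up to 0.510% and 4.11% in another.

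Shares over samples were compared by exact permutation over 252 splits or 120 pairings. Genes with fewer than 10 unique rearrangements were not tested; edgeR 4.0.16 (R 4.3.3) used totals as library sizes, and its SE is the log2 fold change over the root of F. DESeq2 1.42.0 was an alternative. The gene test was tested on simulated data. Intervals are 95% Wilson intervals. Named genes were those with an adjusted p under 0.05 in the TdLN, at most the 10 largest; named rearrangements were the largest of each mouse and the small copies with most templates.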

Additional observations from a re-analysis of the deposited data

Results flagged for a closer look

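In groups of 5 samples, a sample was marked where its gap to the next value exceeded Dixon's limit, which chance passes in about 1 of 20 groups. Tumor 1 of mouse 3 was marked for its stop codon share of templates (7.56%, others 0.0726% to 0.281%), for its largest stop codon rearrangement (506 templates, others 2 to 14) and for small copies (40% of stop codon rows, others 0%). The TdLN of mouse 3 was marked for its largest stop codon rearrangement (42 templates, others 3 to 8). Tumor 1 of mouse 4 was marked for a single-template share of 33.3% (others 66.7% to 75.0%) and tumor 2 of mouse 4 for a Trbv4 share of 0% on 1 row (others 20% to 25.0%). Outside the stop codon rows, 275 in-frame rearrangements held an in-frame stop codon upstream of the CDR3.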

How the results depend on the processing

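Of 437 alternatives for the main comparisons, 352 kept their direction and their side of the threshold (a count of genes, its size within 1.5 times), 36 lost a call, 6 gained one and 27 turned in sign. Another 10 had no direction because a value was 0, and 6 on part of the mice turned in sign with no test. For tumor 2 against the TdLN, in percentage points, the template share lost its call with medians (-0.86), with the mouse as a block (replicate block, -0.83), without rearrangements of another mouse (-0.36) and without first in-frame stop codons wholly in V (-0.38), and leaving out a mouse gave -0.90 to -0.70. The share of non-productive rearrangements lost its call with medians (-1.19), with the block (-1.24), with at least 2 templates (-2.45), without small copies (-1.08) and without rearrangements of another mouse (-0.78), gave -1.41 to -1.10 without a mouse, and turned to 0.0314 without first in-frame stop codons wholly in V and to 0.0172 with a stop codon anywhere in the row counted, an alternative chosen after seeing the data. With 4 against 4 samples the smallest exact permutation p is 0.0286. The template share stood at that p without any 1 mouse. It lost its call without mouse 1, 2, 4 or 5 (exact permutation test, adjusted p = 0.0857). It kept its call without mouse 3 (exact permutation test, adjusted p = 0.0429). These losses of the template share therefore say nothing about stability. The non-productive share stood at 0.0286 without mouse 1 or 2. Without mouse 3, 4 or 5 its exact permutation p was 0.0571, above the smallest possible. The other turns were from main values that had passed no test. The turned template share of tumor 1 against the TdLN did pass without mouse 3 (exact permutation test, adjusted p = 0.0429). In template share, tumor 1 against the TdLN was -0.82 (without mouse 3) to 0.97 when a mouse was left out, -0.90 with medians and 1.68 without rearrangements of another mouse, and tumor 1 against tumor 2 was -0.11 (without mouse 3) to 1.80, and -0.0357 with medians. In unique share, tumor 1 against the TdLN was -0.0753 (without mouse 3) to 0.38 and -0.0601 thinned to the shallowest sample, and tumor 2 against the TdLN was 0.0919 without rearrangements of another mouse, 0.21 without first in-frame stop codons wholly in V and 0.69 with a stop codon anywhere counted. In the non-productive share, tumor 1 against the TdLN was -0.99 to 0.13 without a mouse and 0.59 and 0.57 under the last 2 settings. N bases of tumor 1 against the TdLN were -1.38 with at least 2 templates and -0.73 without long V deletions, also chosen after seeing the data. Small copies of stop codon rows in tumor 1 were -10.4 to 1.87 percentage points from out-of-frame and -10.4 to 0.49 from in-frame rows without a mouse, 2.19 and 3.75 over the last 30 bases and 0.34 from out-of-frame rows over the last 50, and in the TdLN 0.21 from in-frame rows at 20 times the templates. Without the block (no replicate block), the differences of 1.38 and 2.14 N bases passed (exact permutation p = 0.00794). Sharing of tumor 1 with its own TdLN was 10.4% to 17.9% without a mouse and 23.3% with at least 2 templates, where it lost its call (one-sided exact permutation p = 0.05). For V genes against out-of-frame rows, DESeq2 called 3, at least 2 templates 1, leaving out Trbv4 1 and leaving out a mouse 1 to 6. Against in-frame rows, TMM factors called 10, no block 8, and leaving out Trbv4 3. For J genes against out-of-frame rows, at least 2 templates called 0, where Trbj2-7 turned to 0.22, and leaving out a mouse 1 to 3. Against in-frame rows, DESeq2 called 1, at least 2 templates 0 and leaving out a mouse 0 to 2. For tumor 1 against the TdLN, TMM factors called 5 J genes and DESeq2 2. The cause was not tested.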
